A study of Mus musculus with 114 samples.

Results

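The nuclear genes for the proteins of the mitochondrial ribosome were examined in isolated mouse adipocytes. All genes whose symbol begins with Mrpl or Mrps followed by a digit were taken, without use of any expression value, which gave 80 of the 29132 genes in the table. Of these, 49 carry an Mrpl symbol for the large ribosomal subunit and 31 carry an Mrps symbol for the small subunit, and 4 of the 80 are annotated pseudogenes. The cells were the floating fraction of collagenase-digested perigonadal fat from male C57BL/6J mice. Chow (CD) or high fat diet (HFD) was begun at 6 weeks of age and continued for 8, 20 or 34 weeks, so that age and time on diet rose together. There were 6 mice in every group apart from the 34 week CD group, which had 8, and the value of each of the 38 mice is reads on the gene scaled to the total of reads on all genes, as CPM, merged from 3 technical replicates. No genetic change or drug separated the groups, and all mice were of 1 strain and sex.

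Mitochondria keep their own ribosome, which makes the few proteins encoded by mitochondrial DNA, all of them core subunits of the respiratory chain and ATP synthase. Its ribosomal RNAs come from mitochondrial DNA, whereas every one of its proteins is encoded in the nucleus, made on cytosolic ribosomes and imported. White adipocytes depend on mitochondria for fatty acid synthesis and adipokine output.

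Sequencing gave between 9275711 and 15480388 reads on genes per mouse, and at 8 weeks every HFD library (13201234 to 15480388 reads) was deeper than every CD library (10562845 to 12611013). All 10 adipocyte markers were abundant in every mouse, with Adipoq at 2068 CPM or more and Fabp4 at 7001 CPM or more. Of 12 macrophage markers, 11 were in the table, and their summed level ranged from 377 to 1845 CPM in 8 week CD, 1147 to 3574 in 8 week HFD, 983 to 3635 in 20 week CD, 5174 to 10422 in 20 week HFD, 1220 to 13798 in 34 week CD and 5862 to 17352 CPM in 34 week HFD mice. None of the 11 was at 0. In the diet comparisons 8 of 11 macrophage markers rose at 8 weeks, 9 of 11 at 20 weeks and all 11 at 34 weeks, while 2, 7 and 9 of the 10 adipocyte markers fell. Lep went the other way, with a rise of 2.18 at 8 weeks (adjusted p = 0.00118 by limma) and of 2.90 at 20 weeks (adjusted p = 1.78e-05). Markers of endothelial cells rose in 6, 5 and 6 of 6, those of lipid-associated macrophages in 7, 7 and 6 of 7, and those of progenitors and fibroblasts in 3, 6 and 2 of 6 at the 3 times. In RNA from a whole fraction, fewer cells of a type and less RNA per cell cannot be told apart, and the part of this change of composition in the results for ribosomal genes was not tested, apart from fits with a macrophage covariate, whose values are given beside the member counts.

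The 300 base promoter windows of 5 members are shown because these genes carry the main contrasts below. Mrps6 had the largest rise on HFD, Mrpl12 rose at 8 weeks and fell at 34 weeks, and Mrps18a, Mrps18b and Mrps18c are paralogues with different calls. The windows run from 250 bases before to 50 bases after the RefSeq start on GRCm38.p6, 5′ to 3′ on the strand of the gene. Capitals mark the core letters of the sites of 3 activators of nuclear mitochondrial genes on either strand: GCATGCGC for NRF1, CCGGAAG for ETS factors such as GABPA and AAGATGGCG for YY1. None of these letters overlapped another motif in the windows shown.
Mrps6, chr16:92058086-92058385, strand +: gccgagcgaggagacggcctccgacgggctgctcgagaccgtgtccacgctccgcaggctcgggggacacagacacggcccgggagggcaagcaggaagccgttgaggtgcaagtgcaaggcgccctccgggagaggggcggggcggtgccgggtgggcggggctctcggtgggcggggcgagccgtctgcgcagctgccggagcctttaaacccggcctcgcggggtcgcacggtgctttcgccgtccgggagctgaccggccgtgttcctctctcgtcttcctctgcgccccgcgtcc
Mrpl12, chr11:120484387-120484686, strand +: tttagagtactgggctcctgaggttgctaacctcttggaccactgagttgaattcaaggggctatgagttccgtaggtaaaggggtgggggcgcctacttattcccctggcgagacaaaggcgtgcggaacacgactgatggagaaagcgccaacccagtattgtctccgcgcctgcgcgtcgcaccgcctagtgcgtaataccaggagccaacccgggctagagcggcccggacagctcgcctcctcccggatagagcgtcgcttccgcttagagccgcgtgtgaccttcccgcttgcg
Mrps18a, chr17:46110754-46111053, strand +: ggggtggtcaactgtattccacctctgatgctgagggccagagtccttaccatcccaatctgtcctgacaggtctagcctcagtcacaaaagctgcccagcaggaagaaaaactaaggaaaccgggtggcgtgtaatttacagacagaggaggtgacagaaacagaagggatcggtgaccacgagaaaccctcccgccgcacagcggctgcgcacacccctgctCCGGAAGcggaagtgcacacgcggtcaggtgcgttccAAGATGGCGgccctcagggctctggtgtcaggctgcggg
Mrps18b, chr17:35916391-35916690, strand -: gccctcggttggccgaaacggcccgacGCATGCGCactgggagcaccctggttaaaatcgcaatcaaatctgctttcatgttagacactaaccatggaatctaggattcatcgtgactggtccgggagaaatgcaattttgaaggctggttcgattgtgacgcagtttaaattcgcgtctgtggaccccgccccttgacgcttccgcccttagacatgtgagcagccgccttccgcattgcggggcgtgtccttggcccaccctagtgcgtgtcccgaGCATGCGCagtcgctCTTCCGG
Mrps18c, chr5:100798509-100798808, strand +: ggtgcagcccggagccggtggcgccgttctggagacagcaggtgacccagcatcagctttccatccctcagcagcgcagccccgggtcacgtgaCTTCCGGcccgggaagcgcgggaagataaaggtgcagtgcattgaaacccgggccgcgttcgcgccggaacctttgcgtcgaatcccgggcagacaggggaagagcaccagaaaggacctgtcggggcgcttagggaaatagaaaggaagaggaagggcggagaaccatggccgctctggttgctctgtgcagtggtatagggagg

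Windows were found for 66 of the 75 members that were tested, and Mrpl38, Mrpl19 and Mrps35 are among those named here without one. The ETS core was in the windows of 23 of the 66 members (34.8%), against 20.8% of 8287 tested genes and 9.93% of all 27025 genes with a window. The NRF1 core was in 8 members (12.1%), against 6.41% of tested and 3.05% of all genes, and the YY1 core was in 8 members (12.1%), against 3.93% and 1.64%. Mrps18a had the ETS and the YY1 letters, Mrps18b had the NRF1 and the ETS letters, Mrps18c had the ETS letters, and Mrps6 and Mrpl12 had none of them.

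Of the 80 genes, 75 (46 large and 29 small subunit) had a mean log2(CPM + 1) above 2.0 and were tested. The 4 pseudogenes and Mrpl53 were below it, with means of 0.0152 to 0.237 CPM. The exons of Mrpl53 share bases with a predicted gene on the same strand. Divided by the length of their annotated exons, the tested members spanned 2.19 to 64.4 CPM per kb, with a median of 17.6 for the large and 8.94 CPM per kb for the small subunit. Mrps21 was the highest at 64.4 and Mrps35 the lowest of the small subunit at 2.78 CPM per kb. In the large subunit Mrpl20 was the highest at 49.0 and Mrpl23 the lowest at 2.19 CPM per kb. These levels count every annotated exon as part of the transcript, which lowers the value of genes with long alternative exons. Together the 80 genes made up 0.217% to 0.427% of the reads of a mouse.

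**Figure D1:**
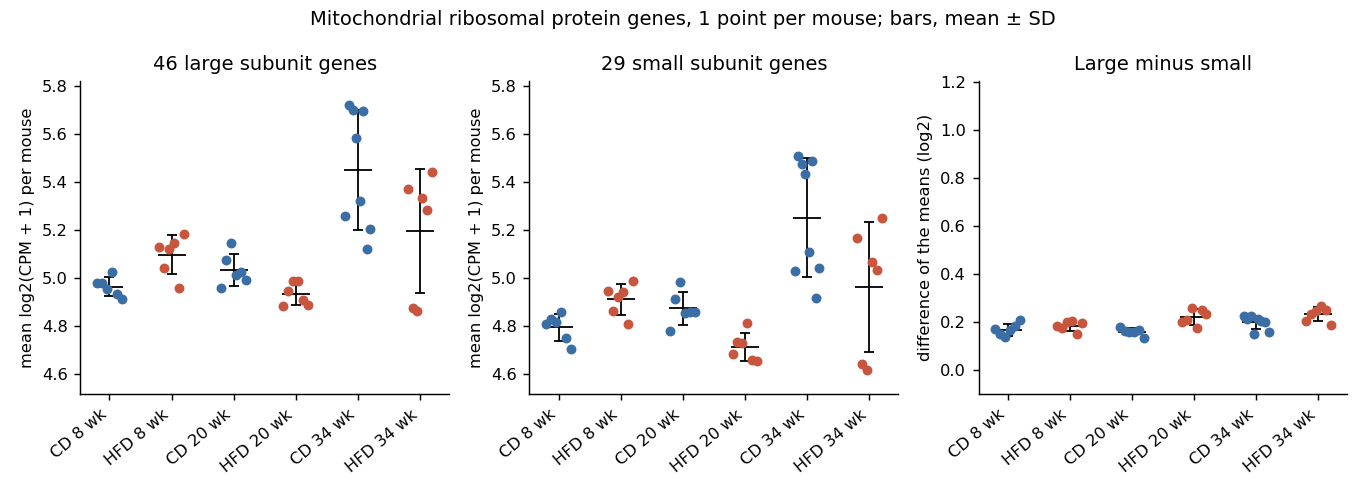
Mean log2(CPM + 1) of the 46 tested large subunit genes (left) and the 29 tested small subunit genes (middle) in each mouse, and the difference of these means (right, drawn over a range of equal span), with 1 point per mouse and the mean ± SD of each group. The means of both subunits are highest and most spread at 34 weeks, while the difference between subunits stays between 0.135 and 0.268 in all 38 mice.

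The plot of means by mouse shows groups that differed in spread as well as in level. A mean does not speak for each member: 34 week CD mouse 2 had the highest mean of all mice, 5.64, and the lowest Mrpl3 (29.2 CPM), Mrps18b (19.3 CPM) and Mrpl38 (50.2 CPM) of its group. The mean log2(CPM + 1) over the 75 members was 4.90 ± 0.045 (SD, n = 6) in 8 week CD and 5.03 ± 0.075 (n = 6) in 8 week HFD mice. At 20 weeks it was 4.97 ± 0.067 (n = 6) in CD and 4.85 ± 0.049 (n = 6) in HFD mice. At 34 weeks it was 5.37 ± 0.248 (n = 8) in CD and 5.11 ± 0.261 (n = 6) in HFD mice, so that the SD between mice of 1 diet was several times that at earlier times. In the 34 week CD mice the means ran from 5.04 to 5.64, and in the 34 week HFD mice from 4.77 to 5.37. HFD mice 2 and 3 lay at 4.79 and 4.77, apart from the other 4 (5.19 to 5.37), and had the lowest summed adipocyte markers of that group, 19153 and 16598 CPM. These mice also had 13240 and 16307 CPM of summed macrophage markers, in a group that ran from 5862 to 17352. The 17352 CPM belonged to HFD mouse 4, whose mean of 5.23 lay among the higher 4. That mouse also had 81.7 CPM of summed brown adipocyte markers, against 10.3 to 21.3 CPM in the rest of its group.

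Among the called members, more were higher than lower after 8 weeks of HFD, more were lower after 20 weeks, and all were lower after 34 weeks. At 8 weeks the members stood near all genes, and 20 of the 75 had a negative fold change. The test was limma on log2(CPM + 1) over all 10343 genes tested, with Benjamini-Hochberg adjustment over all of them and a threshold of 0.05, and fold changes are on the log2(CPM + 1) scale. The members stood at these 3 times at a median of 0.12, -0.12 and -0.25, while all genes tested stood at 0.11, 0.14 and 0.07.

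**Figure D2:**
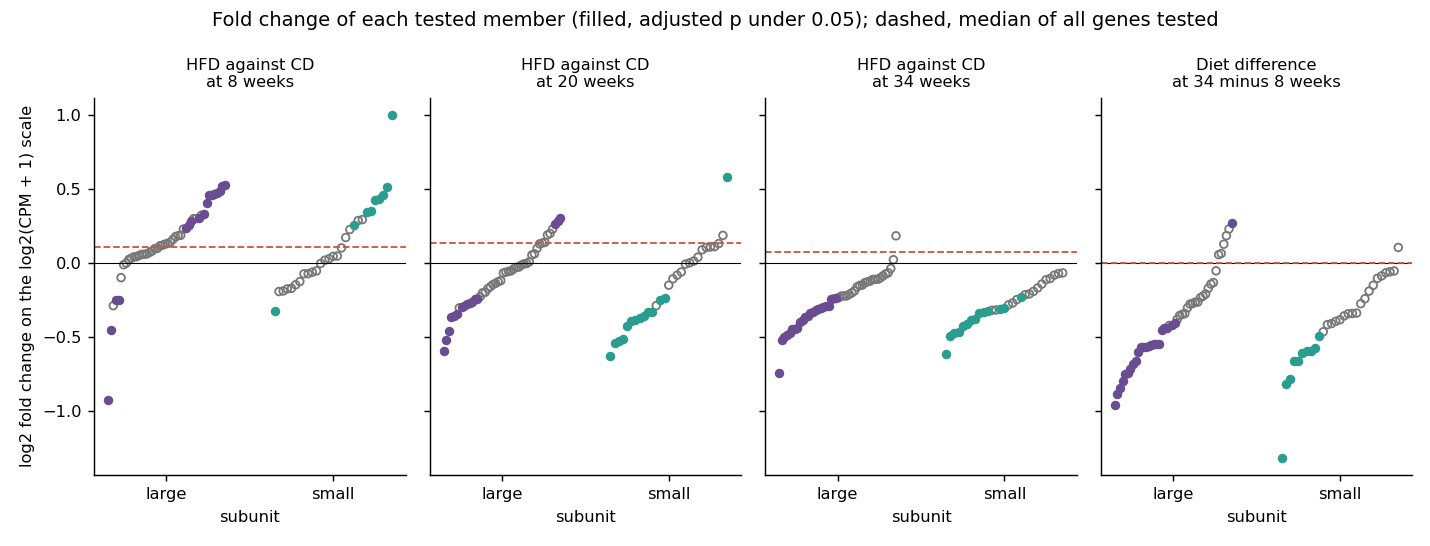
Log2 fold change on the log2(CPM + 1) scale of each of the 75 tested members, by subunit and sorted within it, for HFD against CD at the 3 times and for the diet difference at 34 minus 8 weeks. Filled points have an adjusted p under 0.05 and the dashed line is the median of all 10343 genes tested; at 34 weeks 73 of the 75 points lie below 0.

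At 8 weeks 21 of the 75 members (28.0%) rose on HFD, against 29.8% of all genes tested, and 5 (6.67%) fell, against 15.1%. The share that rose was thus near that of all genes. Mrps6, the bS6 protein of the small subunit, had the largest rise. Its level was 52.1, 58.0 and 73.9 CPM (lowest, median, highest of 6) in CD and 86.5, 127.9 and 152.7 CPM in HFD mice, which did not overlap. The log2 fold change was 1.00 (SE 0.186, adjusted p = 9.68e-05 by limma).

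Mrpl20 and Mrpl12 had the next largest fold changes among the rises, with Mrps14, also at 0.52, close behind. Mrpl20, the bL20 protein of the large subunit, measured 52.0, 60.5 and 68.4 CPM in CD and 66.4, 91.4 and 101.1 CPM in HFD mice (0.53, SE 0.133, adjusted p = 0.00211 by limma), and the diets overlapped. Mrpl12, a stalk protein that also binds the mitochondrial RNA polymerase, measured 39.73, 44.77 and 50.02 CPM in CD and 51.9, 67.3 and 78.9 CPM in HFD mice (0.52, SE 0.157, adjusted p = 0.00769 by limma), without overlap. Mrps36 rose by 0.42 (SE 0.099, adjusted p = 0.00105 by limma), but despite its name its product is known as a subunit of the 2-oxoglutarate dehydrogenase complex.

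The 5 falls at 8 weeks were Mrpl38, Mrpl47, Mrps18a, Mrpl9 and Mrpl3. Mrpl38, a protein found only in mitochondrial ribosomes, measured 103.7, 158.4 and 207.5 CPM in CD and 51.2, 69.9 and 152.8 CPM in HFD mice, with 5 of 6 HFD mice below the CD mean. It fell by 0.93 (SE 0.243, adjusted p = 0.00279 by limma). Mrpl47, the uL29 protein, fell by 0.45 (SE 0.108, adjusted p = 0.00128 by limma), and its 6 HFD mice (6.8 to 8.9 CPM) did not overlap the CD mice (median 11.5 CPM). Mrpl9 and Mrpl3 each fell by 0.25.

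The diets did not overlap at all in 10 members that were higher on HFD at 8 weeks, against 15.7% of all genes tested, and in 3 that were lower, against 7.14%. With a macrophage covariate 29 members rose and 3 fell at 8 weeks, and the calls over all 10343 genes were 2177 higher and 1496 lower. The member median was then 0.22, against 0.06 for all genes. Without HFD mouse 3 also 3 members fell. With TMM scaling 11 rose and 8 fell, while the calls over all genes went from 3083 higher and 1565 lower to 2299 and 2306, since that scaling took the median of all genes from 0.11 to 0.0018.

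At 20 weeks 25 members (33.3%) fell on HFD, against 18.7% of all genes tested, and 4 (5.33%) rose, against 38.3%. The falls included 12 of the 46 large and 13 of the 29 small subunit genes. Mrps18a had the largest fall. It measured 45.0, 51.3 and 70.9 CPM in CD and 29.1, 33.1 and 39.8 CPM in HFD mice, without overlap, and fell by 0.63 (SE 0.123, adjusted p = 6.35e-05 by limma). Structures of the mammalian mitochondrial ribosome place its product in the large subunit, whatever its symbol says.

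Mrpl38 fell by 0.60 (SE 0.243, adjusted p = 0.036 by limma), with a range of 87.4 to 149.0 CPM in CD and 39.8 to 145.4 CPM in HFD mice. The ranges overlapped through a single HFD mouse at 145.4 CPM, and the call was lost with adjusted p up to 0.124 when CD mouse 2 or 5 or HFD mouse 5 or 6 was left out. Mrps35, a small subunit protein with no bacterial counterpart, fell by 0.54 (SE 0.161, adjusted p = 0.0047 by limma). It measured 20.9 to 32.7 CPM in CD and 17.0 to 19.6 CPM in HFD mice, which did not overlap.

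The 4 rises at 20 weeks were Mrps6, Mrpl18, Mrpl19 and Mrpl43. Mrps6 measured 43.1, 56.2 and 68.4 CPM in CD and 77.9, 82.9 and 91.7 CPM in HFD mice (0.58, SE 0.186, adjusted p = 0.00871 by limma), again without overlap. Mrpl18, the uL18 protein, rose by 0.30 (SE 0.112, adjusted p = 0.0221 by limma) and Mrpl19, the bL19 protein, by 0.28 (SE 0.1003, adjusted p = 0.0174 by limma), and neither gene had an overlap of the diets. Of these 4 rises, 1 (Mrps6) was kept with median-of-ratios scaling and none with TMM scaling, where the calls over all genes went from 3957 higher and 1937 lower to 2807 and 3248. Without CD mouse 4 of the 20 week group 2 members rose.

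Without overlap of the diets at 20 weeks, 18 members were lower on HFD, against 11.1% of all genes, and 3 were higher, against 26.1%. The falls rose to 39 with TMM scaling, which took the median of all genes from 0.14 to -0.05. With a macrophage covariate, 1 of the 25 falls (Mrps18a) was left, and the member median was 0.04, against 0.08 for all genes. That covariate also reduced the calls over all genes to 1701 higher and 807 lower from 3957 and 1937.

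At 34 weeks 36 members (48.0%) fell on HFD, against 15.7% of all genes tested. They were 22 of 46 large and 14 of 29 small subunit genes. By limma 0 members rose, against 27.5% of all genes, and 0 had an unadjusted p under 0.05 in that direction, while edgeR and DESeq2 on whole reads also gave 0. The fold change was negative in 73 of the 75 members.

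Mrpl38 again had the largest fall, and it was the only member whose diets did not overlap at 34 weeks, where 0.986% of all genes lay wholly lower and 1.47% wholly higher. It measured 50.2, 67.2 and 119.0 CPM in CD and 35.2, 40.9 and 47.8 CPM in HFD mice and fell by 0.74 (SE 0.228, adjusted p = 0.00898 by limma). Mrps15, the uS15 protein, measured 44.6, 64.6 and 101.7 CPM in CD and 32.1, 45.1 and 54.8 CPM in HFD mice and fell by 0.62 (SE 0.141, adjusted p = 0.000961 by limma). All 6 HFD mice lay below the CD mean, although the ranges overlapped.

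Mrpl41, a protein of the large subunit without a bacterial counterpart, fell by 0.52 (SE 0.136, adjusted p = 0.00267 by limma), from 29.5 to 59.4 CPM in CD to 22.5 to 41.7 CPM in HFD mice, which overlapped. Its call was lost with only the groups compared (adjusted p = 0.0544) and with a macrophage covariate (adjusted p = 0.183), both by limma. Mrps30 fell by 0.39 at 20 weeks (SE 0.135, adjusted p = 0.0148 by limma) and by 0.47 at 34 weeks (SE 0.126, adjusted p = 0.00349 by limma). Its product, like that of Mrps18a, sits in the large subunit in structures. The 34 week call of Mrps30 was lost with array weights (adjusted p = 0.0711) and with only the groups compared (adjusted p = 0.0555). A macrophage covariate removed its 20 and 34 week calls (adjusted p = 0.62 and 0.211), all by limma. Mrpl12, which had risen at 8 weeks, now fell by 0.44 (SE 0.147, adjusted p = 0.0148 by limma), with 66.4, 114.7 and 144.4 CPM in CD and 57.0, 83.6 and 102.8 CPM in HFD mice. This call of Mrpl12 was lost with array weights (-0.11, adjusted p = 0.577), with only the groups compared (adjusted p = 0.117), with a macrophage covariate (adjusted p = 0.218) and without HFD mouse 2 (adjusted p = 0.0591) or 3 (adjusted p = 0.0642), all by limma.

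The 34 week count depended on single mice and on the model. Without CD mouse 5 a single member rose. Without HFD mouse 3, 18 members fell, and without HFD mouse 2, 21 fell. When only the 34 week mice were fitted, 5 members fell (Mrpl30, Mrpl38, Mrps15, Mrps18a and Mrps7), beside 764 of all 10343 genes tested. With array weights 10 members fell, beside 1564 of all genes. In both fits the share of members that fell was no larger than that of all genes. The member medians were -0.25 and -0.11, against 0.07 and 0.04 for all genes. The count of members that fell was 0 with a macrophage covariate, and the member median was then -0.13. That covariate also reduced the calls over all genes to 431 higher and 288 lower from 2840 and 1628. With TMM scaling 50 fell, and the calls over all genes were 2292 higher and 2253 lower.

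The members called in 1 direction at all 3 times were Mrpl38 and Mrps18a, both lower on HFD. For Mrps18a the CD and HFD medians were 47.3 and 39.7 CPM at 8 weeks, 51.3 and 33.1 at 20 weeks and 52.5 and 37.8 CPM at 34 weeks. Its fall at 8 weeks was 0.32 (SE 0.123, adjusted p = 0.0319 by limma) and at 34 weeks 0.43 (SE 0.115, adjusted p = 0.00357 by limma). The 8 week call was lost without CD mouse 2 or 6 or HFD mouse 3 or 5, with adjusted p up to 0.077, and at 8 and 34 weeks it was lost with a macrophage covariate. A further 16 members fell at 20 and 34 weeks without a call at 8 weeks, 7 rose at 8 weeks and fell at 34 weeks, and 17 were called at no time. The shares of all genes with these patterns were not counted, so the counts do not set the members apart from other genes.

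The 3 Mrps18 paralogues are given side by side. Their proteins are relatives of a single bacterial protein, and each sits at its own place in the ribosome. Mrps18b was called at no time, with group medians between 22.0 and 23.8 CPM in all 6 groups and diet fold changes of 0.05, 0.00 and -0.11 (adjusted p = 0.728, 0.998 and 0.364 by limma). Mrps18c was not called at 8 weeks (0.10, SE 0.125, adjusted p = 0.527 by limma), fell by 0.33 at 20 weeks (SE 0.125, adjusted p = 0.0235) and by 0.31 at 34 weeks (SE 0.117, adjusted p = 0.0309), with 21.9 to 25.0 CPM in CD and 16.8 to 20.1 CPM in HFD mice at 20 weeks, which did not overlap. The 20 week call of Mrps18c was lost without HFD mouse 1, at adjusted p = 0.0504, and the 34 week call without any of 6 mice, at adjusted p up to 0.134. The 34 week call was also lost with array weights (-0.09, adjusted p = 0.529) and with only the groups compared (adjusted p = 0.191). A macrophage covariate removed the calls of Mrps18c at 20 and 34 weeks (adjusted p = 0.21 and 0.23), all by limma. Exons of Mrps18c overlap those of a predicted gene on its strand. The differences between the paralogues themselves were not tested.

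**Figure D3:**
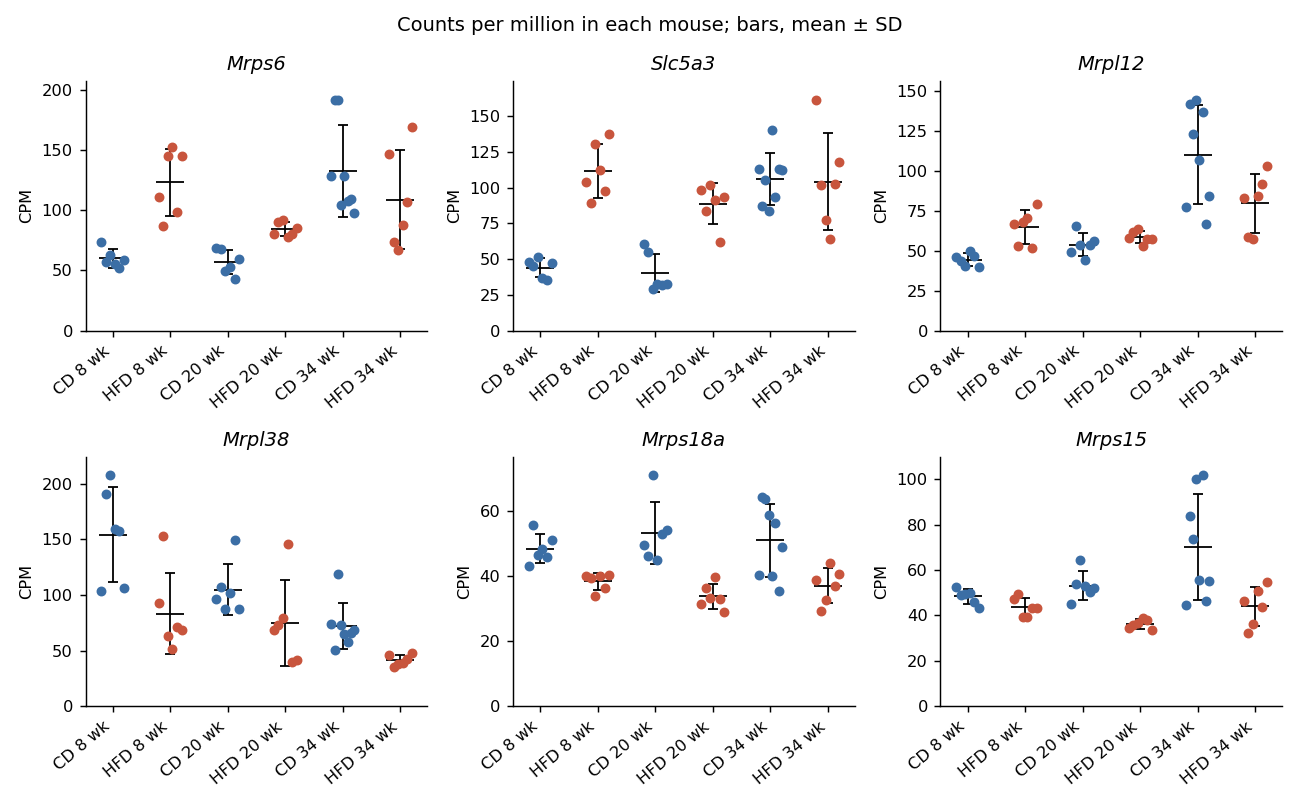
CPM of 5 members and of Slc5a3, whose exons overlap those of Mrps6, in each of the 38 mice (linear axis from 0), with the mean ± SD of each group. Mrps6 and Slc5a3 are high in the same 4 groups, Mrpl12 is highest in 34 week CD mice (median 114.7 CPM), and Mrpl38 is lower at 34 than at 8 weeks on both diets.

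The plot of values by mouse sets Mrps6 beside Slc5a3, the gene of a sodium-coupled inositol transporter, because their annotated exons overlap on the same strand of chromosome 16. Slc5a3 measured 35.8 to 51.9 CPM in CD and 89.2 to 137.8 CPM in HFD mice at 8 weeks. Its diet fold changes were 1.32, 1.16 and -0.07 at the 3 times (SE 0.180, 0.180 and 0.168, adjusted p = 2.24e-06, 2.69e-06 and 0.758 by limma), beside 1.00, 0.58 and -0.32 for Mrps6. Both were also higher in 34 than in 8 week CD mice, by 1.24 for Slc5a3 and 1.09 for Mrps6. How much of either count came from transcripts of the other was not tested. Exons of 7 tested members overlap another gene on their own strand and those of 26 overlap one on the other strand. Mrpl18 is in the latter group with Tcp1, Mrpl19 with Gcfc2 and Mrpl47 with Ndufb5 and Actl6a. The library kit marks strand, but whether the counting used it is not given in the sources used here. The paper states that only reads assigned to a gene without ambiguity were counted, so reads on shared bases may be missing from both genes. The overlaps were taken from a later annotation release than the one the authors counted with.

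The change of the diet difference from 8 to 34 weeks was tested directly as an interaction term. It was negative in 33 members (44.0%), against 15.9% of all genes tested, and positive in 1 (1.33%), against 13%. The negative terms were in 23 of 46 large and 10 of 29 small subunit genes. Mrps6 changed most, with an interaction of -1.32 (SE 0.255, adjusted p = 0.000326 by limma), followed by Mrpl12 with -0.96 (SE 0.215, adjusted p = 0.00118) and Mrpl20 with -0.89 (SE 0.183, adjusted p = 0.000582). For all 3, every HFD mouse was above the CD mean at 8 weeks. At 34 weeks all 6 HFD mice were below the CD mean in Mrpl12 and Mrpl20 and 4 of 6 in Mrps6.

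The positive term belonged to Mrpl3, the uL3 protein, with 0.27 (SE 0.102, adjusted p = 0.0431 by limma). Mrpl3 was lower on HFD at 8 weeks (36.4 to 41.7 CPM in CD, 30.5 to 37.2 in HFD) and at 20 weeks (39.0 to 43.7 CPM in CD, 32.0 to 38.3 in HFD), and differed by 0.02 at 34 weeks. This call was lost with TMM scaling, without the filter on low values and when any 1 of 15 mice was left out. The count of negative terms was 35 with a macrophage covariate and 33 of the 33 were shared, 28 with TMM scaling and 22 with only the groups compared. Over all genes the negative terms in these fits were 1907, 1498 and 1270, from 1640 in the main fit.

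The 34 and 8 week mice were also compared within each diet. These were different mice, and age, time on diet and time of collection cannot be told apart in this comparison. In CD mice 62 members (82.7%) rose, against 40.1% of all genes tested, and 1 fell, against 24.6%. In HFD mice 15 (20.0%) rose, against 31.7%, and 3 fell, against 20.8%. Of the 62 that rose in CD mice, 13 also rose in HFD mice. The median log2 change was 0.50 in CD and 0.08 in HFD mice, beside 0.13 and 0.06 for all genes. Of the 75 members, 68 had their highest group mean in 34 week CD mice, and 36 had their lowest in 20 week HFD and 26 in 8 week CD mice.

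The steps between times were unequal. From 8 to 20 weeks the group means went up in 61 of 75 members in CD mice (median 0.09) and in 8 of 75 in HFD mice (median -0.17). From 20 to 34 weeks they went up in 70 of 75 in CD (median 0.42) and in 73 of 75 in HFD mice (median 0.25). These steps are descriptions without a test, and age, time on diet and the time of collection cannot be told apart in them.

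Mrpl12 rose most in CD mice, by 1.24 from 8 to 34 weeks (adjusted p = 2.94e-08 by limma), beside 0.28 in HFD mice (adjusted p = 0.139). Mrps6 rose by 1.09 in CD mice (adjusted p = 3.25e-06 by limma). Mrpl38 was the single member that fell in CD mice, by 1.09 (adjusted p = 0.000117 by limma), and it also fell in HFD mice, by 0.90 (adjusted p = 0.0024). Its medians went from 158.4 to 99.1 to 67.2 CPM in CD and from 69.9 to 71.1 to 40.9 CPM in HFD mice at 8, 20 and 34 weeks. Mrpl19 rose on both diets, by 0.53 in CD (adjusted p = 1.42e-05 by limma) and by 0.65 in HFD mice (adjusted p = 5.41e-06).

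With a macrophage covariate 71 members rose and 1 fell in CD mice (median 0.65, all genes 0.04), and 9 rose and none of the 3 falls was kept in HFD mice (median 0.27, all genes 0.0029). With TMM scaling 53 members rose and 2 fell in CD mice, and 3 rose and 6 fell in HFD mice, while the calls over all genes went in CD mice from 4151 higher and 2545 lower to 3372 and 3239, and in HFD mice from 3280 and 2152 to 2665 and 2792. The member median in HFD mice was then -0.02, so its direction depended on the scaling. Without 34 week HFD mouse 6, 5 members fell in HFD mice.

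Large and small subunit genes were compared by their medians, with no test. At 8 weeks the median log2 fold change was 0.13 in the large and 0.04 in the small subunit, at 20 weeks -0.09 and -0.15, and at 34 weeks -0.24 and -0.31. The share that fell at 20 weeks was 26.1% of large and 44.8% of small subunit genes, and at 34 weeks 47.8% and 48.3%. The mean of the large minus that of the small subunit genes in a mouse was 0.161 ± 0.015 (SD, n = 6) in CD and 0.221 ± 0.032 (n = 6) in HFD mice at 20 weeks, with ranges of 0.135 to 0.179 and 0.174 to 0.259 that barely overlapped. At 8 weeks it was 0.169 ± 0.025 in CD and 0.185 ± 0.020 in HFD mice, and at 34 weeks 0.199 ± 0.028 in CD (n = 8) and 0.233 ± 0.029 in HFD mice. Where genes were assigned by the ribosome structure, with Mrps30 and Mrps18a counted in the large subunit and Mrps36 left out, the large minus small difference of medians at 20 weeks went from 0.06 to 0.0055.

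**Figure D4:**
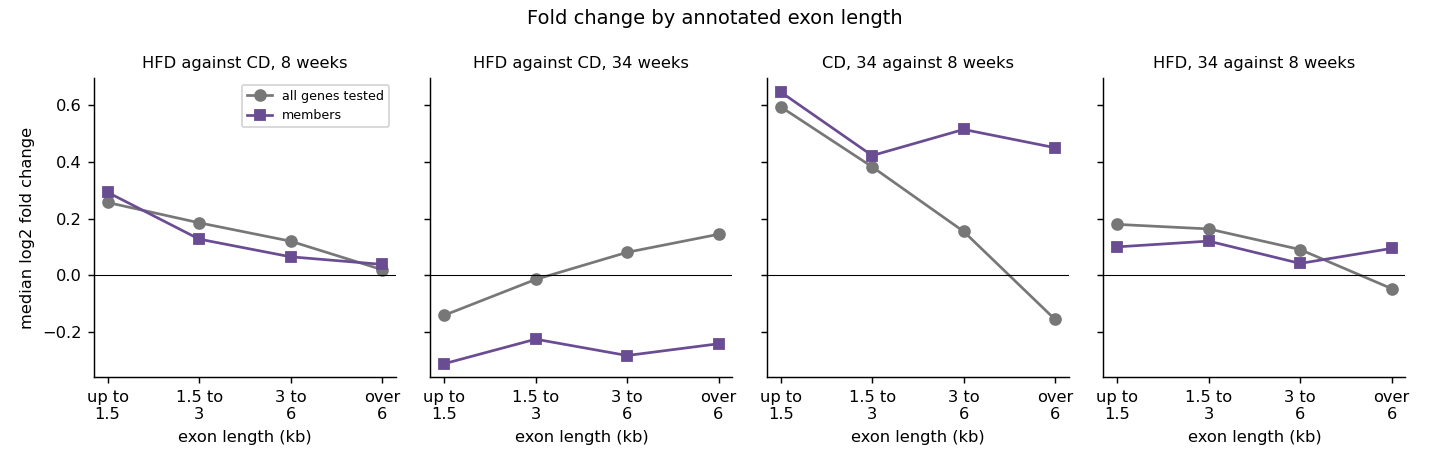
Median log2 fold change of all genes tested (grey circles) and of the tested members (purple squares) in 4 classes of annotated exon length, for 4 comparisons. In 34 against 8 week CD mice the median of all genes goes from 0.59 in the shortest to -0.16 in the longest class, whereas the members stay between 0.42 and 0.64.

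Fold changes of all genes moved with the length of their annotated exons, and the plot by length sets the members beside genes of like length. Exons summed to at most 1500 bases in 19 of the 75 members, against 596 of the 10296 genes tested that have a length. At 8 weeks the short members had a median of 0.29 and all short genes one of 0.26, and in the longest class, over 6000 bases, the medians were 0.04 for 12 members and 0.02 for 3530 genes. At 34 weeks the members were lower than genes of like length in each class, from -0.31 against -0.14 in the shortest to -0.24 against 0.14 in the longest. In CD mice from 8 to 34 weeks the shortest members had a median of 0.64 against 0.59 for all short genes, and the longest 0.45 against -0.16. The diet difference at 34 minus 8 weeks also moved with length in all genes. In the shortest class its median was -0.58 for members and -0.37 for all genes, and in the longest -0.35 and 0.14. The part of transcript length or RNA quality in these medians was not tested.

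**Figure D5:**
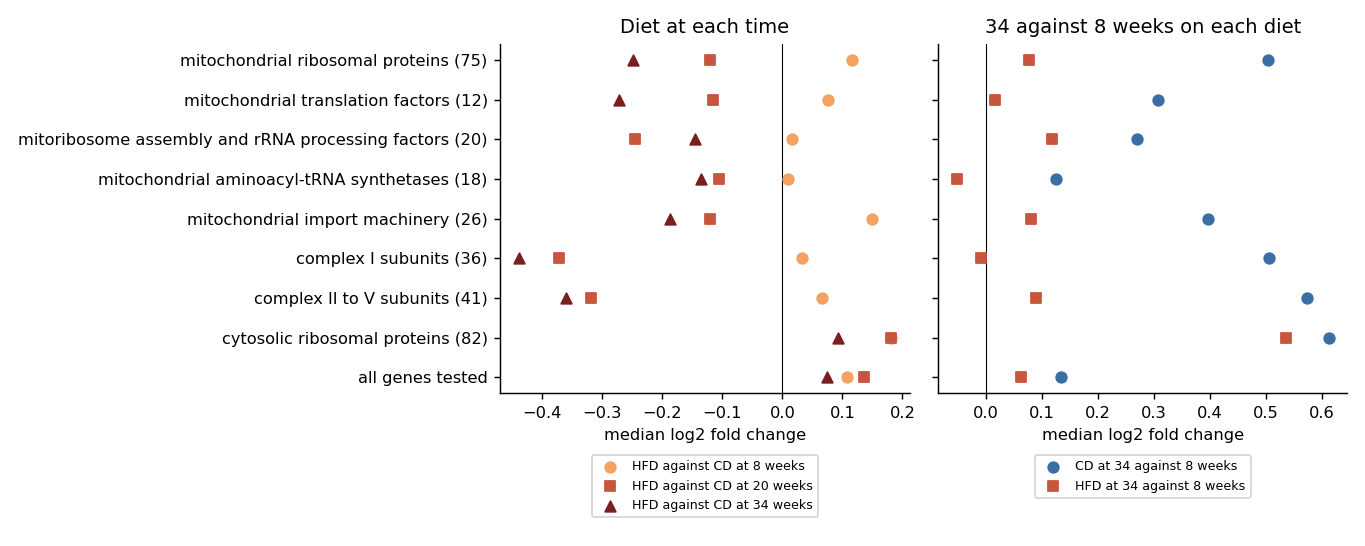
Median log2 fold change of the members, of 7 other gene lists and of all genes tested, for HFD against CD at the 3 times (left) and for 34 against 8 weeks on each diet (right), with the number of tested genes in brackets. The mitochondrial lists lie below 0 at 20 and 34 weeks of HFD, while the cytosolic ribosomal proteins lie above 0 at all 3 times (with TMM scaling at -0.01 at 20 weeks) and rise over time on both diets.

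The rest of the mitochondrial translation system was read from lists of known genes, shown in the plot of list medians. Its counts stand beside 15.1%, 18.7% and 15.7% of all genes tested that fell, and 29.8%, 38.3% and 27.5% that rose, at 8, 20 and 34 weeks. Of 5 tested proteins of the mitochondrial ribosome with other symbols, Dap3 and Gadd45gip1 fell at 34 weeks, by 0.30 and 0.31. Of 12 translation factors, 3 fell at 20 weeks (Mrrf, Tufm and Gfm2) and 7 at 34 weeks, led by the elongation factor genes Tsfm (-0.46) and Tufm (-0.35), and 2 rose at 8 weeks (Mtif2 and Mtfmt). The share of the factors that fell was 25.0% at 20 and 58.3% at 34 weeks, and 16.7% rose at 8 weeks. Of 20 assembly and rRNA processing factors, 11 fell and 2 rose at 20 weeks, and 6 fell and 1 rose at 34 weeks. Their largest falls were Malsu1 (-0.47) and Mettl15 (-0.40) at 20 weeks and Trub2 (-0.63) and Rpusd3 (-0.45) at 34 weeks. Of 18 aminoacyl-tRNA synthetase genes and their partners, 8 fell and 3 rose at 20 weeks and 6 fell at 34 weeks, and Ears2, which charges glutamate tRNA, had the largest fall at both (-0.69 and -0.58). The shares that fell at 20 and 34 weeks were 55.0% and 30.0% of the assembly factors and 44.4% and 33.3% of the synthetase genes. With a macrophage covariate the medians at 20 and 34 weeks were 0.01 and -0.08 for the translation factors, -0.06 and -0.07 for the assembly factors and 0.05 and -0.01 for the synthetase genes.

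The respiratory chain, which holds the products of the mitochondrial ribosome, was read in the same way. Of 36 nuclear complex I subunits, 21 fell at 20 and 34 at 34 weeks, with medians of -0.37 and -0.44. Of 41 subunits of complexes II to V, 19 fell at 20 and 28 at 34 weeks, with medians of -0.32 and -0.36. The shares that fell were 58.3% and 94.4% for complex I and 46.3% and 68.3% for the others, against 18.7% and 15.7% of all genes. From 8 to 34 weeks in CD mice 30 of the 36 (83.3%) and 35 of the 41 (85.4%) rose, against 40.1% of all genes tested. The 13 proteins encoded in mitochondrial DNA were not analysed here. In the import machinery 7 of 26 genes fell and 4 rose at 20 weeks and 8 fell at 34 weeks (26.9% and 30.8% fell), among them Timm50 (-0.51 and -0.53). The complex I medians with a macrophage covariate were -0.06 at 20 and -0.24 at 34 weeks, none of these falls was kept, and all 36 rose from 8 to 34 weeks in CD mice.

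Cytosolic ribosomal protein genes, which make the ribosome of the rest of the cell, had other counts. Of 82 tested, 14 rose and 1 fell at 8 weeks, 16 rose and 1 fell at 20 weeks, and 8 rose at 34 weeks, with medians of 0.18, 0.18 and 0.09. The shares that rose, 17.1%, 19.5% and 9.76%, stand beside 29.8%, 38.3% and 27.5% of all genes tested. From 8 to 34 weeks 79 of 82 (96.3%) rose in CD and 72 of 82 (87.8%) in HFD mice, with medians of 0.61 and 0.54. Of all genes tested 40.1% and 31.7% rose, with medians of 0.13 and 0.06. In the interaction of diet and time 2 of the 82 (2.44%) were higher and 4 (4.88%) lower, against 13% and 15.9% of all genes. The diet rises depended on the scaling: with TMM scaling the medians were 0.07, -0.01 and 0.00, with 4, 0 and 2 rises and 2, 5 and 3 falls, whereas 73 still rose over time in CD and 60 in HFD mice. A macrophage covariate gave diet medians of 0.06, -0.05 and -0.07, and 58 rose over time in CD and 6 in HFD mice. Of all 10343 genes, 3372 rose over time in CD and 2665 in HFD mice with TMM scaling, and 2819 and 690 with the covariate. The difference between this list and the mitochondrial ribosomal genes was not tested.

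Transcripts of 9 known regulators of nuclear mitochondrial genes were examined last. Ppargc1a, the coactivator of mitochondrial biogenesis, fell by 0.84 at 8 weeks (adjusted p = 0.00166 by limma) and by 0.77 at 20 weeks (adjusted p = 0.00192), and differed by -0.12 at 34 weeks (adjusted p = 0.634). At 8 weeks Myc, Pprc1 and Gabpb1 fell as well, which made 44.4% of the 9, against 15.1% of all genes tested. At 34 weeks Nrf1, Gabpa and Gabpb1 rose, by 0.46, 0.44 and 0.49. This share of 33.3% was near the 27.5% of all genes that rose. The interaction was positive for Yy1, Gabpa, Nrf1, Pprc1 and Gabpb1, or 55.6%, against 13% of all genes. Esrra rose at 20 weeks, by 0.31, which was lost with TMM scaling. The 3 rises at 34 weeks were kept with TMM scaling and lost with a macrophage covariate.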

How the data were processed

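The authors aligned polyA-selected reads with STAR to the mouse genome, counted them per gene with featureCounts (Subread 1.5.1) and deposited 1 table of CPM; their processing notes name STAR 2.5 and 2.5.2b. The 114 labelled samples are 3 technical replicates of each of 38 mice, merged by the authors into 1 column per mouse. Every deposited CPM value was a whole multiple of that of 1 read (100% within 0.1 reads; 1 read is 0.0646 to 0.108 CPM), so reads could be recovered, and no scaling factor was visible. The methods of the study describe CPM scaled by TMM factors, so the deposited table differs from that description. The values were used as deposited, with TMM as an alternative that changes the counts at all 3 times and over time on each diet. Of 29132 genes, 10343 with a mean log2(CPM + 1) above 2.0 were fitted in limma 3.58.1 (R 4.3.3) with trend, all 6 groups in 1 model (32 residual degrees of freedom), two-sided, with Benjamini-Hochberg adjustment over all of them and a threshold of 0.05. The fit was tested on simulated data. The p-values measure the spread between mice, estimated per gene and pooled over all 6 groups. That spread was unequal: the SD of the member mean was 0.248 and 0.261 at 34 weeks and 0.045 to 0.075 earlier. The pooled estimate can thus be too small for the 34 week comparison and too large for the earlier ones.

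Members and lists were chosen with earlier results of these data known. Named members were the 3 largest rises and falls among the called in each diet comparison and in the diet difference, those called at all 3 times, the extremes per length, and Mrps18a, Mrps18b, Mrps18c, Mrps30, Mrps36 and Mrpl12 for their roles. Alternatives were a pseudocount of 0.5, other filters, TMM and median-of-ratios scaling, a macrophage covariate, array weights, only the groups compared, a mouse number block, each mouse left out, and edgeR 4.0.16 and DESeq2 1.42.0 on recovered reads. Exon lengths and promoter windows came from the mouse annotation. Genes encoded in mitochondrial DNA were not analysed here.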

Additional observations from a re-analysis of the deposited data

Results flagged for a closer look

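In the tests of the change of the diet difference from 8 to 34 weeks, the named members past the threshold were Mrps6 (-1.32), Mrpl12 (-0.96), Mrpl20 (-0.89), Mrpl41 (-0.85), Mrps21 (-0.82), Mrpl18 (-0.60), Mrps36 (-0.59) and Mrpl3 (0.27), all as log2 differences by limma.

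A single mouse stood apart from its group, by Dixon's criterion, in 3 of the 120 sets examined, which were the 6 groups for each of 18 named members and for 2 means over members, and chance alone gives about 1 in 20. Mrpl20 was low in 20 week HFD mouse 4, at 5.96 on the log2(CPM + 1) scale. Mrpl38 was high in 34 week CD mouse 3, at 6.91. Mrpl3 was high in 20 week HFD mouse 4, at 5.30.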

How the results depend on the processing

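No named member reversed its direction where it was called, and a pseudocount of 0.5 and a filter at a mean of 3 changed no call of a named member. Counts are of members higher or lower, by comparison.

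With TMM scaling 11 rose and 8 fell at 8 weeks, 0 rose and 39 fell at 20 weeks, 2 fell in CD mice and 3 rose and 6 fell in HFD mice over time, and the diet difference was higher in 0. With median-of-ratios scaling 11 rose at 8 and 1 at 20 weeks, 5 rose and 6 fell in HFD mice over time, and the diet difference was higher in 0. With edgeR the values were 11, 0 higher and 40 lower, 0, 2 lower in CD and 5 higher in HFD mice, and with DESeq2 11, 1 higher and 38 lower, 0, and 7 higher in HFD mice. Over all genes median-of-ratios scaling called 2374 higher at 8 and 3011 higher at 20 weeks. For edgeR these calls were 2287 higher at 8 weeks, and 2757 higher and 3285 lower at 20 weeks. For DESeq2 they were 2456, 3018 and 3059. Without the filter on low values 3 fell at 8 weeks, the diet difference was higher in 0, and the member median relative to all genes was -0.094 at 20 weeks.

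With a macrophage covariate 3 fell at 8 weeks, 2 rose and 1 fell at 20 weeks, 0 fell at 34 weeks, and 9 rose and 0 fell in HFD mice over time. Its member medians relative to all genes were -0.036 at 20 and -0.16 at 34 weeks, and the large minus small difference was 0.053 at 8 and -0.031 at 20 weeks. Array weights gave 36 rises and 11 falls at 8 weeks, 8 rises at 20 weeks, 1 rise and 10 falls at 34 weeks, 4 higher diet differences, 5 falls in HFD mice over time, a relative median of -0.15 and a large minus small difference of 0.026 at 34 weeks. Calls over all genes were then 4473 higher and 2559 lower at 8 weeks, from 3083 and 1565 in the main fit. They were 4881 higher at 20 weeks, from 3957, and 2539 higher and 1564 lower at 34 weeks. With only the groups compared, 8 rose at 20 weeks, 5 fell at 34 weeks and the diet difference was higher in 0. In that fit 4391 of all genes were higher at 20 weeks and 764 lower at 34 weeks. Assigned by structure, the subunits differed by 0.0055 at 20 weeks. The cause of these changes was not tested.

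Mouse numbers are shared between groups but did not pair the mice: deviations of same-numbered mice had a median correlation of -0.068 over 90 pairs, against 0.0026 over 510 other pairs. With the mouse number as a replicate block 23 rose and 5 fell at 8 weeks, 4 rose and 25 fell at 20 weeks and 51 fell at 34 weeks.

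Leaving out each mouse in turn gave 14 to 23 rises and 3 to 7 falls at 8 weeks, 2 to 4 and 18 to 25 at 20 weeks, and 0 to 1 and 18 to 47 at 34 weeks. The diet difference was higher in 0 to 1 and lower in 24 to 44 members. Over time 60 to 64 rose in CD mice, and 11 to 22 rose and 2 to 5 fell in HFD mice. Relative medians were -0.011 to 0.021, -0.30 to -0.21 and -0.39 to -0.26, and large minus small differences 0.061 to 0.11, 0.019 to 0.11 and 0.028 to 0.077, at 8, 20 and 34 weeks. The lowest mean of a tested member was 10.1 CPM, where 1 read is at most 0.108 CPM.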
